A study of Mus musculus with 8 samples.

Results

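Livers of mice exposed to PM2.5 for 30 weeks were compared with livers of mice kept in filtered air (FA) for the same time, over both light regimes of the study. PM2.5 is fine airborne particulate matter, small enough to reach the deep lung. All mice were wild type C57BL/6, and RNA of snap-frozen liver was sequenced. The exposed libraries were 2 of LD-PM2.5 (PM2.5 in a light/dark cycle) and 2 of LL-PM2.5 (PM2.5 in constant light). Their controls were 2 of LD-FA (filtered air in a light/dark cycle) and 2 of LL-FA (filtered air in constant light). All 8 libraries of the series therefore entered, 4 against 4, and the model kept the light regime. Tests covered 11316 of the 48432 listed genes, those estimated without fault in all libraries and reaching 1 FPKM in 2 or more. FPKM is a level scaled to transcript length and library depth. The sources used here give neither the hour at which livers were taken, nor the sex or age of the mice, nor how many animals a library holds, nor a batch or date. Nothing in the labels says that replicates came from separate animals, so every p-value measures the spread between these samples, which may be technical.

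Hepatocytes carry a molecular clock in which the activators BMAL1 (encoded by Arntl) and CLOCK or NPAS2 switch on genes through E-box elements. Among these genes are the repressors of the Per and Cry families, which block the activators, and the nuclear receptors of the REV-ERB family (Nr1d1 and Nr1d2), which repress Arntl and Npas2. Transcripts driven through E-boxes and transcripts under REV-ERB control therefore peak at different times of the day, and levels taken at a single time depend on the phase of the clock. Much of liver metabolism, including bile acid synthesis and glucose output, follows this clock.

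The libraries held 22214720 to 31819109 fragments assigned to genes. Across the tested genes the 2 libraries of a group correlated at a Pearson r of 0.972 to 0.976 on the log2(FPKM + 1) scale. Of the 10 hepatocyte markers, 9 were measured, and their summed FPKM lay between 33580 and 43250 in PM2.5 and between 33910 and 44490 in filtered air. On the first principal component, 28.9% of the variance, LD-FA replicate 1 stood apart from the other 7 libraries. The plot of marker sums shows that transcripts of other tissues set single libraries apart. The 9 exocrine pancreas markers summed to 103 FPKM in LD-PM2.5 replicate 1, 330.5 in LL-PM2.5 replicate 2 and 3463 in LD-FA replicate 1, and to at most 5.14 in the other 5 libraries. The 9 skeletal muscle markers summed to 0.545 to 1.42 FPKM in the 4 PM2.5 libraries, against 294 and 32.7 FPKM in LD-FA and 576 and 0.799 FPKM in LL-FA. All 9 were tested, with log2 fold changes of median -9.19. All 9 were lower at an unadjusted p under 0.05, against 4.5% of all tested genes, without a call. As they summed to at most 1.42 FPKM in PM2.5, they entered the tests almost only through filtered-air libraries, where they were high. Their direction was thus largely fixed by the filter on FPKM. Fat markers summed to 16.7 to 24.4 FPKM in PM2.5, against 10.4 to 20.4 in filtered air apart from LL-FA replicate 1 at 95. In bulk liver RNA, fewer cells of a type and less RNA per cell cannot be told apart. The part of these transcripts in the results on other genes was not tested. The counts of calls and of non-overlapping genes, and some of the lists, are also given with replicate 1 of both filtered-air groups left out.

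**Figure D1:**
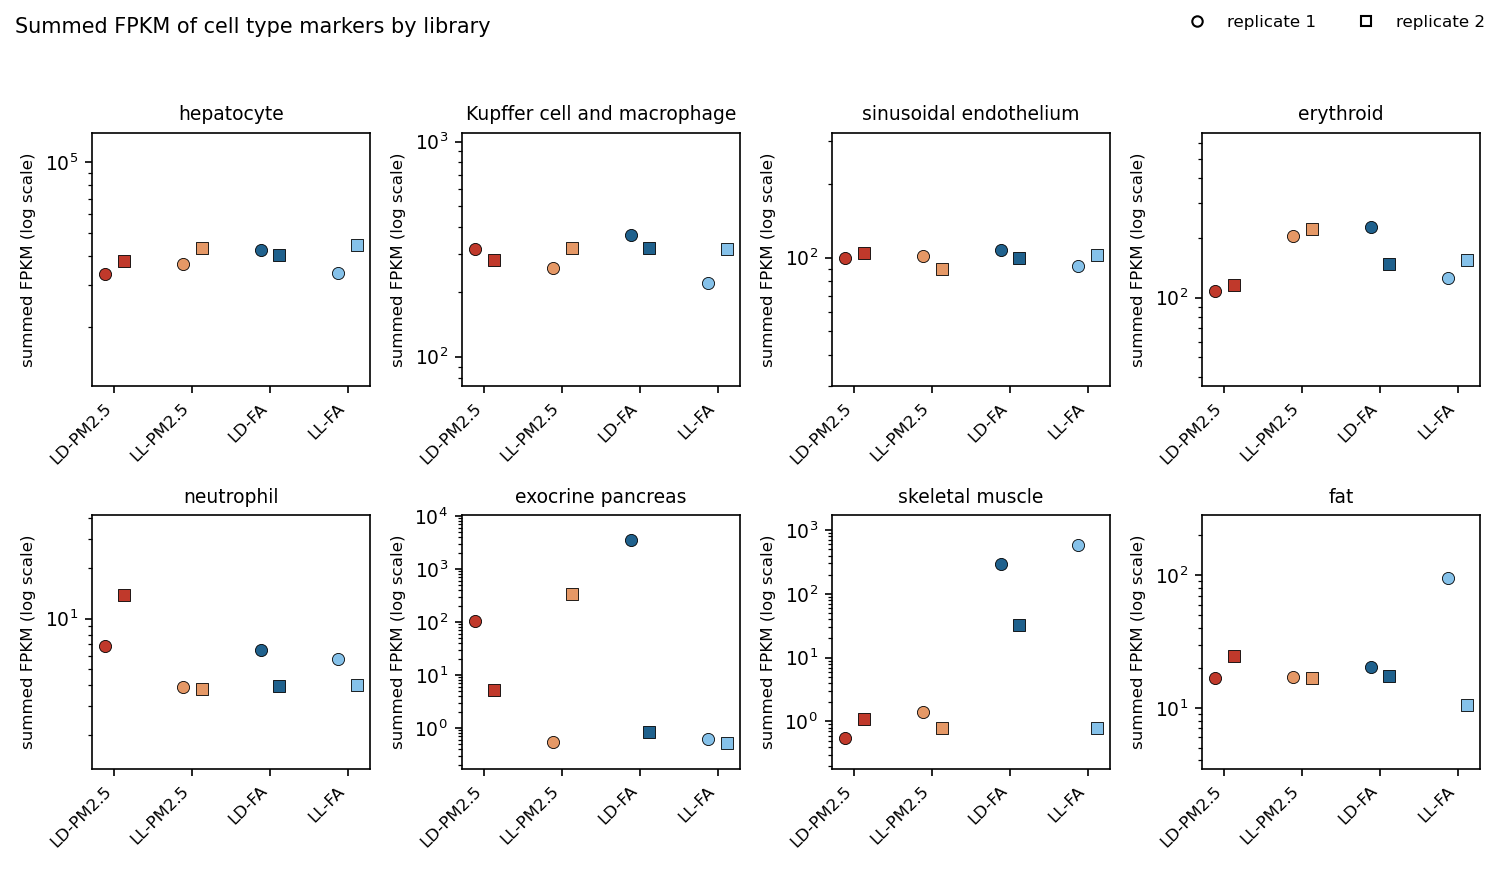
Summed FPKM of cell type marker genes in each library, on a log scale, with replicate 1 as circles and replicate 2 as squares and with LD-PM2.5, LL-PM2.5, LD-FA and LL-FA from left to right. Hepatocyte sums lie between 33580 and 44490 in all 8 libraries, while skeletal muscle sums reach 576 in filtered air and at most 1.42 in PM2.5.

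Over both light regimes 2 genes rose with PM2.5 and none fell, 0.0177% of the tested genes (edgeR quasi-likelihood test, adjusted p under 0.05). Both, Rgs16 and Mtss1, are known as transcripts with a daily rhythm in mouse liver. An additive model of light regime and air, without a separate PM2.5 effect per regime, called 0 genes (edgeR, smallest adjusted p = 0.089). At an unadjusted p under 0.05 edgeR listed 627 genes as higher (5.54%) and 509 as lower (4.5%). DESeq2, applied to the same fragments, called 161 genes (1.42%), 78 higher and 83 lower. In FPKM, all 4 PM2.5 libraries lay above all 4 filtered-air libraries for 180 genes (1.59%) and below them for 205 (1.81%). With each light regime compared on its own, both PM2.5 libraries lay above both filtered-air libraries in both regimes for 327 genes (2.89%), and below them in both for 380 (3.36%). With so few libraries, some genes separate in these ways without any effect, as some have an unadjusted p under 0.05. The counts by separation and by unadjusted p therefore do not number genes changed by PM2.5. The median log2 fold change over all tested genes was -0.0022, the quartiles lay at -0.12 and 0.135, and 49.5% were positive. The number of calls depended on single libraries. Leaving out LD-PM2.5 replicate 2, or any single filtered-air library, left 0 calls. Leaving out LL-PM2.5 replicate 2 left 1, LL-PM2.5 replicate 1 gave 10, and LD-PM2.5 replicate 1 gave 17. With LD-FA replicate 1 left out together with LL-FA replicate 1 there were 0 calls, and 1868 genes had non-overlapping groups, with fewer libraries to separate.

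Rgs16, a regulator that shortens signalling by G proteins (chromosome 1, 153740349 to 153745468, GRCm38), rose 11.8-fold. It stood at 1.65 and 2.17 FPKM in LD-PM2.5 and 3.3 and 1.61 FPKM in LL-PM2.5, against 0.35 and 0.293 FPKM in LD-FA and 0.088 and 0.121 FPKM in LL-FA. Every PM2.5 library was above every filtered-air library, and LL-FA was the lowest group. The log2 fold change was 3.56 ± 0.29 (SE, edgeR adjusted p = 0.0337), with 2.59 in the light/dark cycle and 4.54 in constant light. These levels are low, 132 to 286 fragments in PM2.5 and 7 to 28 in filtered air. Rgs16 reached 1 FPKM only in PM2.5 libraries, so it entered the tests through the group where it was high. Mtss1, a protein that bends membranes and binds actin (chromosome 15, 58941234 to 59082005, GRCm38), rose 2.38-fold. It stood at 35.4 and 41.8 FPKM in LD-PM2.5 and 30.3 and 29.8 FPKM in LL-PM2.5, against 13.1 and 14.4 FPKM in LD-FA and 15.2 and 14.4 FPKM in LL-FA, with 5056 to 5649 fragments in PM2.5 and 1961 to 2842 in filtered air. Every PM2.5 library was above every filtered-air library, and the 4 filtered-air libraries lay close together, at 14.3 ± 0.886 FPKM (mean and SD, n = 4). Its log2 fold change was 1.25 ± 0.11 (SE, edgeR adjusted p = 0.0408), with 1.46 in the light/dark cycle and 1.04 in constant light. The log2 fold change of Rgs16 stayed between 3.30 and 3.75 and that of Mtss1 between 1.17 and 1.32 when each library was left out in turn, while the adjusted p went up to 0.209 for both. On log2(FPKM + 1), which damps low levels, limma gave Rgs16 1.37 (adjusted p = 0.102) and Mtss1 1.2 (adjusted p = 0.0251).

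Next in order of p came a pair of clock genes with opposite signs, neither of which passed the threshold in edgeR. Arntl, the gene for BMAL1 (chromosome 7, 113207465 to 113314126, GRCm38), stood at 4.4 and 3.995 FPKM in LD-PM2.5 and 2.09 and 2.04 FPKM in LL-PM2.5, against 6.75 and 6.35 FPKM in LD-FA and 6.1 and 4.88 FPKM in LL-FA. Its 4 PM2.5 libraries were all below its 4 filtered-air libraries, the LL-PM2.5 pair most. On the log2 scale the difference was -1.01 ± 0.10 (SE, edgeR adjusted p = 0.0569), with -0.65 in the light/dark cycle and -1.37 in constant light. Dbp, a transcription factor that the clock drives through E-boxes and that binds D-box elements (chromosome 7, 45705088 to 45710203, GRCm38), stood at 9.12 and 13 FPKM in LD-PM2.5 and 32.9 and 54 FPKM in LL-PM2.5, against 2.77 and 2.05 FPKM in LD-FA and 3.86 and 9.08 FPKM in LL-FA. The lowest PM2.5 library lay only just above the highest filtered-air library, LL-FA replicate 2, while within each light regime the groups were far apart. PM2.5 over filtered air gave a log2 fold change of 2.51 ± 0.27 (SE, edgeR adjusted p = 0.0672), with 2.21 in the light/dark cycle and 2.82 in constant light. DESeq2 gave adjusted p values of 7.6e-09 for Arntl and 7.18e-22 for Dbp.

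**Figure D2:**
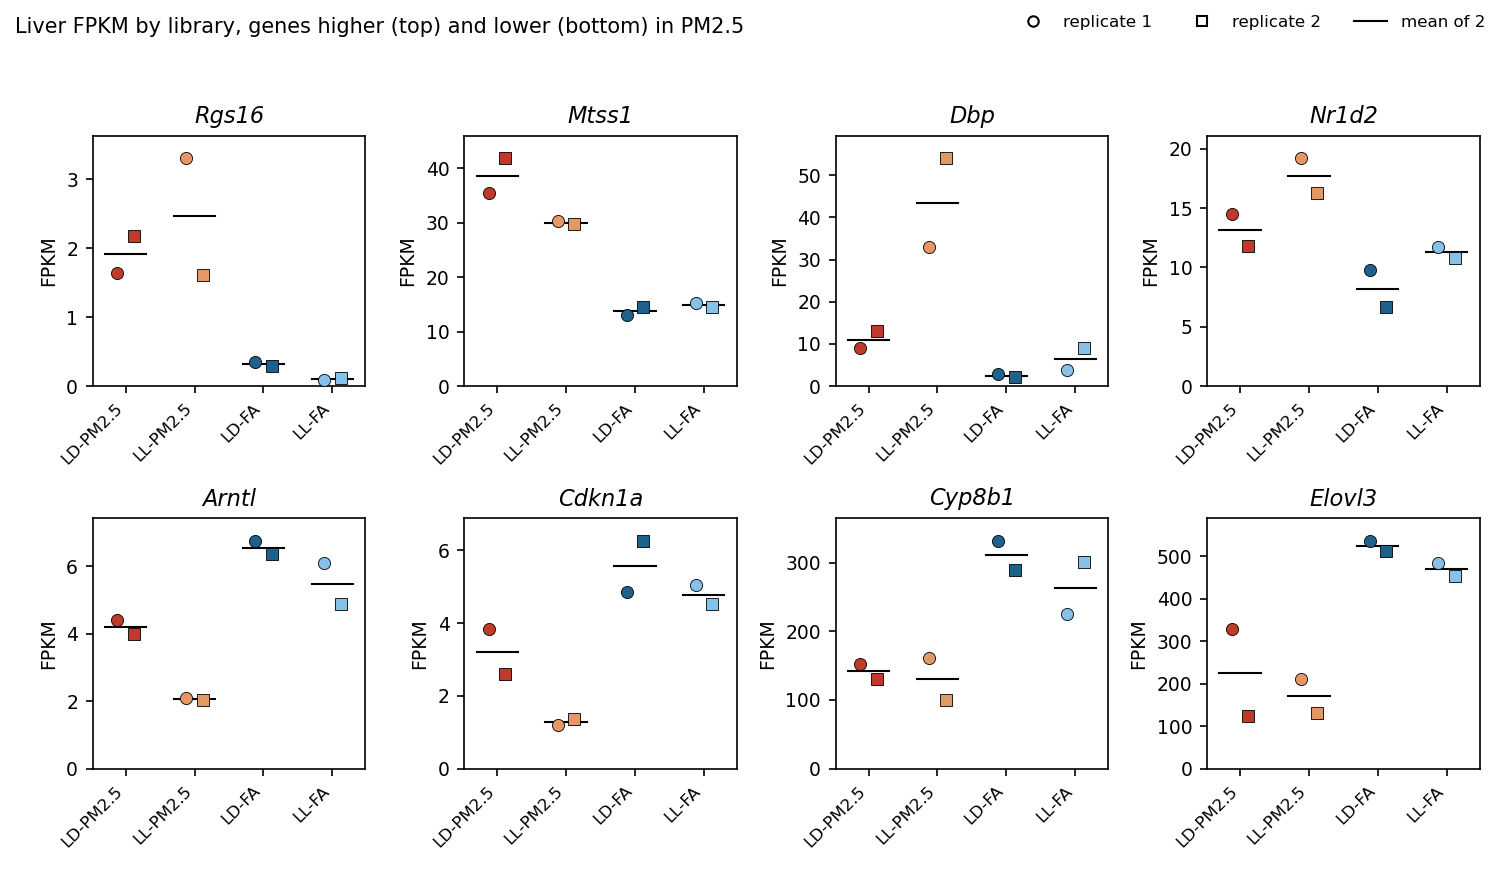
FPKM of 8 genes in every library, with replicate 1 as circles, replicate 2 as squares and a line at the mean of the 2 libraries of a group; LD-PM2.5 and LL-PM2.5 stand left of LD-FA and LL-FA. For Rgs16, Mtss1, Dbp and Nr1d2 all PM2.5 libraries lie above all filtered-air libraries, and for Arntl, Cdkn1a, Cyp8b1 and Elovl3 they lie below.

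The promoters of Rgs16, Arntl, Dbp and Cdkn1a, among the genes with the smallest p, each from 250 bases before to 50 after the start of transcription, are shown to set the results beside the elements through which the clock acts (RefSeq, GRCm38.p6, plus strand, 5′ to 3′). Capitals mark a match to any of 6 motifs searched on both strands. These were the E-box CACGTG, the D-box TTANGTAA, the REV-ERB and ROR element TAGGTCA, the cAMP response element TGACGTCA, and the cores of the xenobiotic (TNGCGTG) and antioxidant (TGACNNNGC) response elements. Rgs16 and Dbp have no match in their windows. Arntl has TAGGTCA starting at base 31 after the start, in the window shown of its 2 listed windows. Cdkn1a has a match to the antioxidant core on the minus strand, starting at base 28 after the start, in the window shown of its 2 listed windows. The matches do not overlap. No window is shown for Mtss1.
Rgs16, chr1:153740103-153740402: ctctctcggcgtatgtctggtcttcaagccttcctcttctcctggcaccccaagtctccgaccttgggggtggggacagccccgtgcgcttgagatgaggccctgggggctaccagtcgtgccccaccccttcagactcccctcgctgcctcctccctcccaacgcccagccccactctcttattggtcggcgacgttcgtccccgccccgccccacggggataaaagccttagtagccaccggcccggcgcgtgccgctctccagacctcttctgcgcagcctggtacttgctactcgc
Arntl, chr7:113207261-113207560: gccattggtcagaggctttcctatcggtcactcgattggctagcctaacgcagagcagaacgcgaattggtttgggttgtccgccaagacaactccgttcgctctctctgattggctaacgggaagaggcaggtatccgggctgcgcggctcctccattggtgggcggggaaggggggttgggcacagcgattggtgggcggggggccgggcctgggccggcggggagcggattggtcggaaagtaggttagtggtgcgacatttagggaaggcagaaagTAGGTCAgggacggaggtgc
Dbp, chr7:45704997-45705296: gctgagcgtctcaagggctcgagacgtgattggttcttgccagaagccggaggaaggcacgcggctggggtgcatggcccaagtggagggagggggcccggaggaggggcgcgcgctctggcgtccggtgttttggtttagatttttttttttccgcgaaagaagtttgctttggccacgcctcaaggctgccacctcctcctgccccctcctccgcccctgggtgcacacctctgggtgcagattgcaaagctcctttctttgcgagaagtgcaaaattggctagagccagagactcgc
Cdkn1a, chr17:29093519-29093818: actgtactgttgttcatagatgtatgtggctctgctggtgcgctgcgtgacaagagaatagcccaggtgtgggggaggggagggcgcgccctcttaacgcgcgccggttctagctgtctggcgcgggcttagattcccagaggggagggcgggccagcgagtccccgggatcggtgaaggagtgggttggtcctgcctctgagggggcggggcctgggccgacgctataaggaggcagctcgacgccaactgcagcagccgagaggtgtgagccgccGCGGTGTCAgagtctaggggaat

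TAGGTCA occurs in 2.61% of all 32851 promoter windows and the antioxidant core in 12.4%. The E-box occurs in 7.15% of the windows and the D-box in 2.32%. Of the 12 tested E-box driven clock genes, 10 had a window, and the windows of 4 (Ciart, Cry1, Per1 and Tef) held CACGTG. The xenobiotic core was in 4 of the same windows (Cry1, Hlf, Nr1d1 and Tef) and the antioxidant core in 4 (Cry1, Cry2, Nr1d2 and Per1). Among 10 windows of rhythmic outputs, 0 held CACGTG. The 5 opposite phase genes all had a window, none held CACGTG, and those of Arntl and Nfil3 held TAGGTCA. A match describes these letters only, and an E-box can lie outside such a window. Among genes with a window, CACGTG was present for 35 of the 238 higher in both light regimes (14.7%), 33 of the 287 lower in both (11.5%) and 1002 of all 8296 tested (12.1%). The xenobiotic core was present for 9.52% and the antioxidant core for 17.2% of all tested genes with a window. These shares are descriptions, without a test.

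As a group, the clock genes driven through E-boxes stood higher in PM2.5. All 12 tested members had a positive log2 fold change, against 49.5% of all tested genes, and 7 had an unadjusted p under 0.05, against 5.54%. None passed the adjusted threshold. Earlier results of these data were known when the list was drawn up, so its counts are no independent evidence of its direction. The 4 PM2.5 libraries lay above the 4 filtered-air libraries for 4 members, Dbp, Nr1d2, Per1 and Per2, against 1.59% of all tested genes. PM2.5 was higher within both light regimes for 7, which adds Per3, Tef and Ciart, against 2.89%. Per3 and Ciart reached 1 FPKM only in PM2.5 libraries, so they entered the tests and these counts through the group where they were high. The median log2 fold change of the list was 1.1 (1.27 in the light/dark cycle and 0.82 in constant light), against -0.0022 over all genes. It was 0.68 with limma on log2(FPKM + 1) and 0.64 over the 7 members that passed the stricter filter. With LD-PM2.5 replicate 2 left out, the median was 0.75 and 9 of 12 were positive. With LD-PM2.5 replicate 1 left out, it was 1.1 and 11 of 12 were positive. With replicate 1 of both filtered-air groups left out, the median was 1.11 with 12 of 12 positive.

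The Per genes encode the repressors that close the clock's loop. Per1 stood at 1.7 and 5.99 FPKM in LD-PM2.5 and 3.37 and 2.03 FPKM in LL-PM2.5, against 0.966 and 1.44 FPKM in LD-FA and 1.53 and 1.21 FPKM in LL-FA. All PM2.5 libraries were above all filtered-air libraries, although LD-PM2.5 replicate 1 exceeded LL-FA replicate 1 by little. edgeR put the log2 fold change at 1.31 ± 0.38 (SE, edgeR adjusted p = 0.413). Per2 stood at 1.85 and 9.33 FPKM in LD-PM2.5 and 1.86 and 2.23 FPKM in LL-PM2.5, against 0.699 and 1.7 FPKM in LD-FA and 1.23 and 1.08 FPKM in LL-FA, again without overlap between the airs, and LD-PM2.5 replicate 2 was far above the other 3 PM2.5 libraries. The log2 fold change was 1.52 ± 0.49 (SE, edgeR adjusted p = 0.43). Per3 stood at 0.345 and 2.29 FPKM in LD-PM2.5 and 1.16 and 1.52 FPKM in LL-PM2.5, against 0.111 and 0.138 FPKM in LD-FA and 0.456 and 0.464 FPKM in LL-FA. LD-PM2.5 replicate 1 lay below the LL-FA pair, but within each regime PM2.5 was higher. Its log2 fold change was 2.44 ± 0.52 (SE, edgeR adjusted p = 0.361).

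Nr1d2, which encodes the repressor REV-ERBβ, stood at 14.5 and 11.8 FPKM in LD-PM2.5 and 19.2 and 16.3 FPKM in LL-PM2.5, against 9.76 and 6.66 FPKM in LD-FA and 11.8 and 10.8 FPKM in LL-FA. The groups did not overlap, but the lowest PM2.5 library, LD-PM2.5 replicate 2, was barely above the highest filtered-air library, LL-FA replicate 1. On the log2 scale the difference was 0.62 ± 0.12 (SE, edgeR adjusted p = 0.325), with 0.58 in the light/dark cycle and 0.67 in constant light. Nr1d1, which encodes REV-ERBα, stood at 52.5 and 5.55 FPKM in LD-PM2.5 and 37.8 and 39.8 FPKM in LL-PM2.5, against 22 and 20.1 FPKM in LD-FA and 15.1 and 12.2 FPKM in LL-FA. Here LD-PM2.5 replicate 2 was the lowest of all libraries, and the other 3 PM2.5 libraries were the highest. PM2.5 over filtered air gave a log2 fold change of 0.99 ± 0.56 (SE, edgeR adjusted p = 0.577), and it was -0.22 without LD-PM2.5 replicate 1. Tef, a D-box binding factor related to Dbp, stood at 13.4 and 34.6 FPKM in LD-PM2.5 and 30.4 and 24.4 FPKM in LL-PM2.5, against 7.1 and 8.82 FPKM in LD-FA and 14.8 and 16.3 FPKM in LL-FA, and its log2 fold change was 1.2 ± 0.29 (SE, edgeR adjusted p = 0.396). Ciart, a repressor of CLOCK and BMAL1, stood at 0.198 and 1.86 FPKM in LD-PM2.5 and 0.968 and 1.75 FPKM in LL-PM2.5, against 0.129 and 0.145 FPKM in LD-FA and 0.366 and 0.32 FPKM in LL-FA. With LD-PM2.5 replicate 2 left out, the log2 fold changes were 0.76 for Per1, 0.74 for Per2, 1.52 for Per3, 0.76 for Tef and 1.36 for Ciart. Within each regime PM2.5 was higher for Tef and for Ciart, and only LD-PM2.5 replicate 1 overlapped the LL-FA libraries. The log2 fold change of Ciart was 2.40 ± 0.61 (SE, edgeR adjusted p = 0.396).

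The other 4 tested members lay nearer to 0. Cry2 was at 0.51 ± 0.24, Bhlhe40 at 0.25 ± 0.27, Hlf at 0.23 ± 0.19 and Cry1 at 0.18 ± 0.46 on the log2 scale. Cry1, a repressor that works with the Per proteins, stood at 2.85 and 15.1 FPKM in LD-PM2.5 and 2.9 and 2.72 FPKM in LL-PM2.5, against 5.36 and 3.97 FPKM in LD-FA and 5.09 and 3.51 FPKM in LL-FA, so its mean in PM2.5 rests on LD-PM2.5 replicate 2. Without that library Cry1, Hlf and Bhlhe40 had negative log2 fold changes, -0.70, -0.008 and -0.105, and Cry2 was at 0.17. Bhlhe41, which encodes the repressor DEC2 and was below the level filter, was not tested. Its 4 PM2.5 libraries, at 0.488 to 0.806 FPKM, were all above its 4 filtered-air libraries, at 0.141 to 0.27 FPKM.

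**Figure D3:**
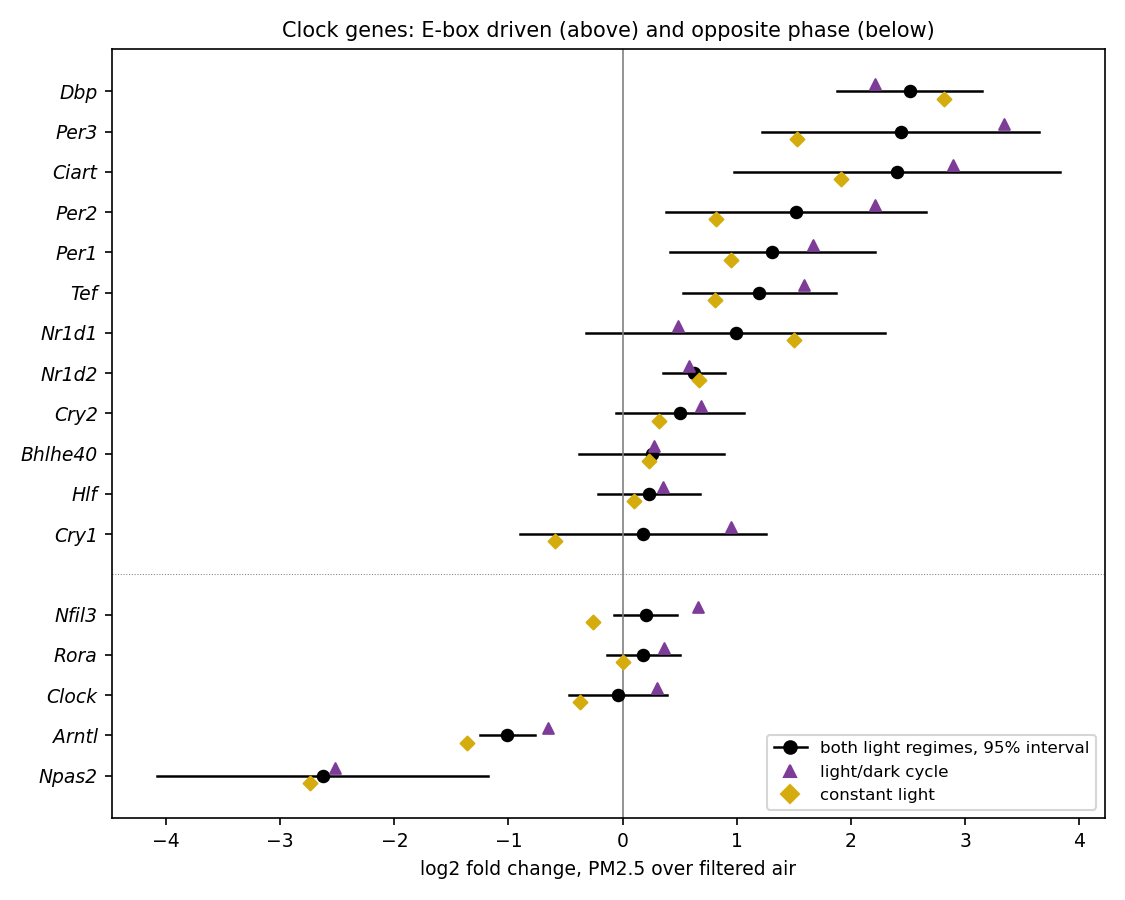
Log2 fold change of PM2.5 over filtered air for clock genes, 12 driven through E-boxes above the dotted line and 5 of the opposite phase below it. Circles with bars give the average over both light regimes with its 95% interval from edgeR, triangles the light/dark cycle and diamonds constant light; all 12 circles above the line are positive, and the intervals of Arntl and Npas2 below it lie left of 0.

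The clock genes that peak in the opposite phase had no common direction. Of the 5 tested, 2 had a positive and 3 a negative log2 fold change. The median was -0.04 (0.30 in the light/dark cycle and -0.38 in constant light). At an unadjusted p under 0.05, 2 were lower, against 4.5% of all tested genes. For Arntl and Npas2 all PM2.5 libraries lay below all filtered-air libraries, as for 1.81% of all tested genes. Npas2, whose protein can replace CLOCK beside BMAL1, stood at 0.413 and 0.0276 FPKM in LD-PM2.5 and 0.113 and 0.0357 FPKM in LL-PM2.5, against 1.17 and 1.41 FPKM in LD-FA and 0.544 and 0.469 FPKM in LL-FA, with 3 to 58 fragments in PM2.5 and 53 to 230 in filtered air. edgeR put the log2 fold change at -2.63 ± 0.62 (SE, edgeR adjusted p = 0.396). Npas2 reached 1 FPKM only in the LD-FA libraries, so it entered the tests through a group where it was high. Nfil3, a D-box repressor, was at 0.20 ± 0.12, with 0.66 in the light/dark cycle and -0.26 in constant light. Rora, which encodes an activator that competes with REV-ERB, was at 0.18 ± 0.14. Clock ranged from 3.46 to 9.83 FPKM in PM2.5 and from 4.63 to 8.98 FPKM in filtered air, so the groups overlapped.

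Rhythmic outputs of the liver clock include both genes that rose. Of the 14 tested, 2 were called, against 0.0177% of all genes. At an unadjusted p under 0.05, 7 were higher and 2 lower, against 5.54% and 4.5%, and the median was 0.48 (0.97 in the light/dark cycle and 0.04 in constant light). The list was drawn up with earlier results of these data known, so its calls are no independent evidence of its direction. Its median was 0.27 without LD-PM2.5 replicate 2. Cdkn1a, which encodes the cell cycle inhibitor p21 (chromosome 17, 29090976 to 29100727, GRCm38), stood at 3.83 and 2.61 FPKM in LD-PM2.5 and 1.2 and 1.36 FPKM in LL-PM2.5, against 4.86 and 6.27 FPKM in LD-FA and 5.04 and 4.52 FPKM in LL-FA. All PM2.5 libraries were below all filtered-air libraries, and LL-PM2.5 was lowest. The log2 fold change was -1.41 ± 0.17 (SE, edgeR adjusted p = 0.133), with -0.86 in the light/dark cycle and -1.97 in constant light. Cdkn1a is also in the list of p53 and growth arrest, which had no common direction. Of its 10 tested genes 5 were positive, and the median was -0.006. At an unadjusted p under 0.05, 3 of them were higher and 1 lower, against 5.54% and 4.5% of all tested genes. Sesn2 of that list was at 0.53 ± 0.14, without overlap, and Gadd45a at 1.11 ± 0.31. Elovl3, an enzyme that lengthens very long chain fatty acids, stood at 329 and 123 FPKM in LD-PM2.5 and 212 and 131 FPKM in LL-PM2.5, against 537 and 513 FPKM in LD-FA and 485 and 454 FPKM in LL-FA. The groups did not overlap, and the PM2.5 libraries spread widely while the filtered-air libraries were close together. Its log2 fold change was -1.39 ± 0.24 (SE, edgeR adjusted p = 0.325).

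The 5 other outputs with an unadjusted p under 0.05 were all higher, and were picked out after their values were seen. Wee1, a kinase that delays mitosis, was at 1.72 ± 0.58 on the log2 scale, Usp2, a deubiquitinase, at 1.64 ± 0.64, and Upp2, a uridine phosphorylase, at 1.03 ± 0.39. Por, the electron donor of the cytochrome P450 enzymes, was at 0.90 ± 0.28, and Nampt, the rate-limiting enzyme of NAD salvage, at 0.65 ± 0.24. In Wee1, Por, Nampt and Usp2 the highest library was LD-PM2.5 replicate 2. With that library left out, the log2 fold change was 0.59 for Wee1, 0.30 for Usp2, 0.40 for Upp2, 0.48 for Por and 0.30 for Nampt. Usp2 stood at 1.35 and 16.5 FPKM in LD-PM2.5 and 5.07 and 3.07 FPKM in LL-PM2.5, against 1.01 and 0.803 FPKM in LD-FA and 3.3 and 4.59 FPKM in LL-FA. Its log2 fold changes were 3.13 in the light/dark cycle and 0.14 in constant light, and the difference between regimes was not called. The edgeR adjusted p of these 5 genes lay between 0.421 and 0.465.

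Outside the clock lists, the rule of smallest p among non-overlapping genes named 8 more genes above and 7 more below filtered air, none past the threshold. Abcg5, one of the 8, is given with sterol export. Among the others higher in PM2.5 was Herpud1, a component of the degradation machinery of the endoplasmic reticulum, at 385 and 387 FPKM in LD-PM2.5 and 259 and 307 FPKM in LL-PM2.5, against 218 and 207 FPKM in LD-FA and 175 and 217 FPKM in LL-FA. Each PM2.5 library exceeded each filtered-air library. On the log2 scale the difference was 0.70 ± 0.11 (SE, edgeR adjusted p = 0.296). Pawr, a regulator of apoptosis, was at 0.64 ± 0.09 and Ugcg, the enzyme of glucosylceramide synthesis, at 0.65 ± 0.10. Il15ra, the receptor subunit that binds interleukin-15, was at 0.84 ± 0.15, Klf15, a transcription factor of amino acid and glucose metabolism, at 0.47 ± 0.09, Atg14, an autophagy factor, at 0.59 ± 0.11, and Lpin2, a phosphatidate phosphatase, at 0.67 ± 0.12. The edgeR adjusted p of these genes lay between 0.261 and 0.325. In the light/dark cycle Il15ra was at 1.25, Atg14 at 0.82 and Lpin2 at 1.08, against 0.43, 0.35 and 0.27 in constant light. Klf15 was at 0.33 and 0.62 in that order. In constant light the groups of Il15ra and Lpin2 nearly touched. LL-PM2.5 replicate 2 stood at 6.36 and 36.7 FPKM, against LL-FA at up to 6.24 and 36.4 FPKM. None of these differences between regimes was called.

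On the lower side, Fam89a stood at 4.95 and 4.51 FPKM in LD-PM2.5 and 6.79 and 6.2 FPKM in LL-PM2.5, against 10.4 and 9.92 FPKM in LD-FA and 12.1 and 10.6 FPKM in LL-FA, with the LD-PM2.5 pair lowest. PM2.5 over filtered air gave a log2 fold change of -0.97 ± 0.12 (SE, edgeR adjusted p = 0.134). Fpgs, which adds glutamates to folate, was at -0.54 ± 0.09, Dhrs3, a retinal reductase, at -0.47 ± 0.08, and Clpx, a mitochondrial unfoldase, at -0.85 ± 0.15. Coq8a, needed for coenzyme Q synthesis, was at -0.68 ± 0.13 and Snrpn, a splicing protein of an imprinted locus, at -0.54 ± 0.10. Cyp8b1, the sterol 12α-hydroxylase that sets the make-up of bile acids (chromosome 9, 121914356 to 121916305, GRCm38), stood at 152 and 131 FPKM in LD-PM2.5 and 162 and 99.9 FPKM in LL-PM2.5, against 332 and 289.7 FPKM in LD-FA and 225 and 302 FPKM in LL-FA. The highest PM2.5 library was well below the lowest filtered-air library. edgeR put the log2 fold change at -1.08 ± 0.17 (SE, edgeR adjusted p = 0.31), with -1.13 in the light/dark cycle and -1.03 in constant light.

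Genes of sterol excretion stood on the other side of zero from Cyp8b1. Abcg5 and Abcg8 encode the 2 subunits of the transporter that secretes cholesterol into bile. Abcg5 stood at 17.8 and 29.7 FPKM in LD-PM2.5 and 33.3 and 41.7 FPKM in LL-PM2.5, against 13.6 and 14.9 FPKM in LD-FA and 15.3 and 14.9 FPKM in LL-FA, without overlap, and its log2 fold change was 1.02 ± 0.19 (SE, edgeR adjusted p = 0.325). Abcg8 was at 0.58 ± 0.13, with 0.22 in the light/dark cycle and 0.95 in constant light. The list of bile acid synthesis and sterol export as a whole was balanced, with 6 of 12 positive and a median of 0.02. At an unadjusted p under 0.05, 2 were higher and 1 lower, against 5.54% and 4.5% of all tested genes.

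Cholesterol synthesis was mostly on the lower side. Of 23 tested genes 21 had a negative log2 fold change, 2 were lower at an unadjusted p under 0.05, against 4.5% of all genes, none was called, and the median was -0.36 (-0.75 in the light/dark cycle and -0.13 in constant light). The summed FPKM of the list was 1960 and 988 FPKM in LD-PM2.5, 1752 and 1995 FPKM in LL-PM2.5, against 2199 and 2403 FPKM in LD-FA and 2104 and 1714 FPKM in LL-FA. LD-PM2.5 replicate 2 was the lowest library. Without it the median was -0.21 with 18 negative, and with LD-PM2.5 replicate 1 left out it was -0.85. Srebf2, which encodes the factor that switches the pathway on, stood at 13 and 12.6 FPKM in LD-PM2.5 and 12.2 and 12.5 FPKM in LL-PM2.5, against 14.5 and 19 FPKM in LD-FA and 13.7 and 13.1 FPKM in LL-FA. Its groups did not overlap, and the difference was small, -0.26 ± 0.11 (SE, edgeR adjusted p = 0.495). Dhcr7, the last enzyme of the pathway, was at -0.56 ± 0.24, and Tm7sf2, a sterol reductase, at -0.29 ± 0.10. Msmo1 and Hmgcs1, named after their values were seen because PM2.5 was lower in both regimes, were at -0.78 ± 0.36 and -0.88 ± 0.50. With LD-PM2.5 replicate 2 left out, the log2 fold change was -0.33 for Dhcr7, -0.45 for Msmo1 and -0.475 for Hmgcs1.

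In glucose and insulin metabolism, Irs2 and Pck1 stood higher. Irs2, the adaptor that links the insulin receptor to its kinases, stood at 4.34 and 4.05 FPKM in LD-PM2.5 and 2.61 and 4.83 FPKM in LL-PM2.5, against 2.44 and 2.67 FPKM in LD-FA and 0.852 and 1.38 FPKM in LL-FA. PM2.5 was higher within both regimes, and only LL-PM2.5 replicate 1 overlapped LD-FA. The log2 fold change was 1.24 ± 0.22 (SE, edgeR adjusted p = 0.325), with 0.72 in the light/dark cycle and 1.77 in constant light. Pck1, the gatekeeper of gluconeogenesis, stood at 992 and 1029 FPKM in LD-PM2.5 and 753 and 739 FPKM in LL-PM2.5, against 676 and 432 FPKM in LD-FA and 412 and 531 FPKM in LL-FA, without overlap. Its log2 fold change was 0.77 ± 0.16 (SE, edgeR adjusted p = 0.361). The lists showed no common direction. Insulin signalling had 7 of 10 positive and a median of 0.09, and glucose and glycogen metabolism had 13 of 18 positive and a median of 0.16. In fatty acid and triglyceride synthesis 10 of 18 were positive, the median was 0.03, and Elovl6, an enzyme of fatty acid elongation, stood without overlap at 19.3 and 27.2 FPKM in LD-PM2.5 and 19.4 and 17.5 FPKM in LL-PM2.5, against 9.57 and 13.2 FPKM in LD-FA and 14.4 and 10.7 FPKM in LL-FA, a log2 fold change of 0.79 ± 0.19 (SE, edgeR adjusted p = 0.396).

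Genes of protein folding stress lay on the higher side in PM2.5, without calls. In the unfolded protein and integrated stress response 13 of 14 tested genes were positive. The median was 0.48, near equal in both regimes (0.50 each). At an unadjusted p under 0.05, 3 were higher, against 5.54% of all tested genes. Beside Herpud1, Creld2, a folding factor of the endoplasmic reticulum, was at 1.28 ± 0.48, and Ddit3, which encodes the stress factor CHOP, at 0.64 ± 0.24. Creld2 was at 0.58 with LL-PM2.5 replicate 2 left out. LD-PM2.5 replicate 1 and LL-PM2.5 replicate 2 had the most pancreas transcripts of the PM2.5 libraries, and leaving them out in turn gave medians of 0.20 and 0.18. Leaving out the other PM2.5 libraries gave 0.69 (LD-PM2.5) and 0.77 (LL-PM2.5). The most pancreas transcripts of all 8 libraries were in LD-FA replicate 1. The summed FPKM of this stress list was 1730 there, against 1068 to 1175 in the other filtered-air libraries and 1097 to 2707 in PM2.5. The part of pancreas RNA in this list was not tested. Among 15 heat shock chaperones 14 were positive, and 4 were higher at an unadjusted p under 0.05, against 5.54% of all tested genes. Their median was 0.34 (0.43 in the light/dark cycle and 0.06 in constant light). Hspa8, the constitutive HSP70, stood at 539 and 748 FPKM in LD-PM2.5 and 209.9 and 371 FPKM in LL-PM2.5, against 284 and 286 FPKM in LD-FA and 244 and 211 FPKM in LL-FA, with overlap between LL-PM2.5 replicate 1 and filtered air, and was at 0.76 ± 0.23 (SE, edgeR adjusted p = 0.414). Dnaja1, its co-chaperone, was at 0.48 ± 0.14. Hspa8 was at 0.46 with LL-PM2.5 replicate 2 left out. None of the 15 had an unadjusted p under 0.05 with replicate 1 of both filtered-air groups left out. The heat shock median was 0.20 with LD-PM2.5 replicate 2 left out and 0.17 with LL-PM2.5 replicate 2 left out.

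Inflammatory transcripts were divided. All 8 tested cytokine and NF-kB genes were positive, and the median was 0.63. At an unadjusted p under 0.05, 5 were higher, against 5.54% of all tested genes. PM2.5 lay above filtered air within both regimes for 1 of the 8, against 2.89% of all tested genes, a count too small to compare. This was Relb, a subunit of NF-kB, which reached 1 FPKM only in the LD-PM2.5 libraries. Cxcl1, a chemokine that attracts neutrophils, stood at 64.1 and 109 FPKM in LD-PM2.5 and 3.08 and 10.6 FPKM in LL-PM2.5, against 10.6 and 10.1 FPKM in LD-FA and 3.66 and 1.94 FPKM in LL-FA. The LD-PM2.5 libraries were far above all others, and in constant light the groups overlapped. On the log2 scale the difference was 2.23 ± 0.45 (SE, edgeR adjusted p = 0.343), with 3.04 in the light/dark cycle and 1.41 in constant light. Nfkb2 was at 0.64 ± 0.17 and Relb at 0.84 ± 0.24. Tnf, Il6 and Cxcl2 were below the level filter. All 9 genes of STAT3 signalling and the Pim kinases were positive with a median of 0.34, 0.74 in the light/dark cycle and -0.115 in constant light, and Pim3 was at 0.72 ± 0.14, with 1.35 in the light/dark cycle and 0.09 in constant light. Acute phase proteins, which hepatocytes secrete in inflammation, had no common direction, with 9 of 23 positive and a median of -0.04. Of interferon response genes 3 of 11 were positive, with a median of -0.11. Lrg1, an acute phase protein, was lower within both regimes, at -0.50 ± 0.17. Neutrophil markers summed to 6.86 and 13.9 FPKM in LD-PM2.5, 3.91 and 3.80 FPKM in LL-PM2.5, against 6.49 and 3.93 FPKM in LD-FA and 5.77 and 3.99 FPKM in LL-FA.

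Immediate early genes did not share a direction, with 4 of 10 positive and a median of -0.21, which lay between -0.41 and 0.20 when each library was left out in turn. Dusp1, a phosphatase that switches off MAP kinases, stood at 8.27 and 13.5 FPKM in LD-PM2.5 and 8.12 and 7.73 FPKM in LL-PM2.5, against 41.3 and 19.5 FPKM in LD-FA and 18.1 and 15.2 FPKM in LL-FA. All PM2.5 libraries were below all filtered-air libraries. PM2.5 over filtered air gave a log2 fold change of -1.25 ± 0.26 (SE, edgeR adjusted p = 0.348). Junb, an AP-1 subunit, was at 1.16 ± 0.34, with overlap between the groups. For Klf6, at 0.50 ± 0.19 (SE, edgeR adjusted p = 0.455), all PM2.5 libraries lay above all filtered-air libraries. Non-overlapping groups were thus found for 1 gene of the list in each direction, against 1.59% (higher) and 1.81% (lower) of all tested genes.

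The pathways that sense airborne chemicals held no call in liver, and their list medians lay between -0.02 and 0.17 apart from the metallothioneins. The aryl hydrocarbon receptor, which binds polycyclic aromatic hydrocarbons, induces Cyp1a1. Cyp1a1 stood at 0.155 to 0.472 FPKM in PM2.5 and 0.271 to 0.532 FPKM in filtered air, below the level filter, as were Cyp1b1, Ahrr and Aldh3a1. Cyp1a2, a target expressed in unexposed liver, stood at 284 and 356 FPKM in LD-PM2.5 and 277 and 148 FPKM in LL-PM2.5, against 388 and 362 FPKM in LD-FA and 307 and 328 FPKM in LL-FA. It was lower with PM2.5 in each regime, and its log2 fold change was -0.40 ± 0.19 (SE, edgeR adjusted p = 0.521), which became -0.21 with LL-PM2.5 replicate 2 left out. Among 14 genes of the NRF2 antioxidant response 7 were positive, and the median was 0.02. Only 1, Hmox1, was higher at an unadjusted p under 0.05, against 5.54% of all tested genes. Hmox1, which degrades heme, was at 0.64 ± 0.27, and at 0.27 with LL-PM2.5 replicate 2 left out. Cytochrome P450 families 2 and 3 had a median of 0.03 over 16 genes and phase II conjugation -0.02 over 13. The 5 metallothionein and zinc genes were all positive with a median of 0.51, which was 0.15 with 3 positive without LD-PM2.5 replicate 2. Slc39a14, a zinc and iron importer, was at 0.51 ± 0.10 (SE, edgeR adjusted p = 0.325).

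Regulators of chromatin stood near 0. Histone acetylation genes had 10 of 20 positive and a median of 0.01, DNA and histone methylation 13 of 18 and 0.09, and chromatin remodelling 11 of 13 and 0.06. The accessibility of chromatin was not analysed here. Oxidative phosphorylation had 0 of 16 positive, but the shift was small, a median of -0.10, and none of the 16 had an unadjusted p under 0.05. The other metabolic and hormonal lists had medians between -0.12 (heme synthesis and breakdown) and 0.26 (iron sensing), as the plot of list medians shows.

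**Figure D4:**
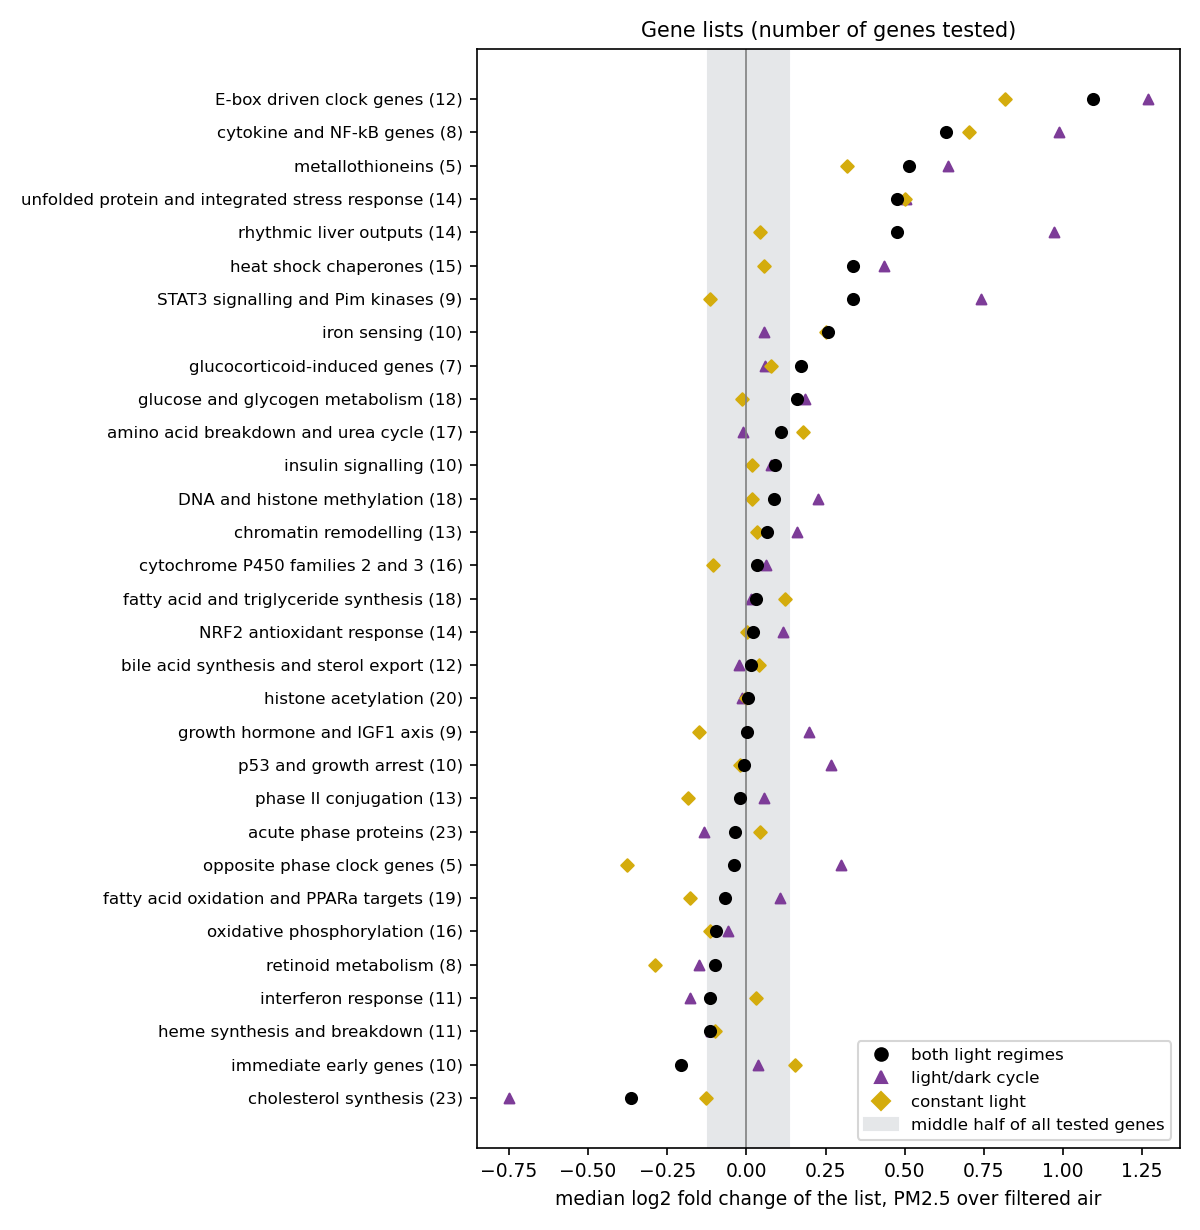
Median log2 fold change of PM2.5 over filtered air for the gene lists with at least 5 tested members, cell type markers left out, with the number of genes tested in parentheses. Circles average both light regimes, triangles give the light/dark cycle, diamonds constant light, and the grey band spans the quartiles of all tested genes (-0.12 to 0.135); E-box driven clock genes stand highest at 1.1 and cholesterol synthesis lowest at -0.36.

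Markers of most resident liver cells had medians near 0, and those of cholangiocytes stood lower. The median log2 fold change was -0.01 for hepatocytes, -0.04 for Kupffer cells and macrophages, 0.003 for sinusoidal endothelium and 0.12 for stellate cells, and none of these lists held a call. The 4 tested cholangiocyte markers were all negative, with a median of -0.30 (-0.71 in the light/dark cycle and -0.03 in constant light). That median was -0.11 with LD-FA replicate 1 left out and 0.002 with replicate 1 of both filtered-air groups left out. Summed endothelial markers lay between 89.7 and 104 FPKM in PM2.5 and between 92.2 and 108 FPKM in filtered air. Lyve1, a hyaluronan receptor of sinusoidal endothelium, was at 1.21 ± 0.39, and at 0.54 with LL-PM2.5 replicate 2 left out. Nkg7 was the 1 measured marker of T and NK cells above the level filter, at 1.22 ± 0.42 (SE, edgeR adjusted p = 0.43). It reached 1 FPKM only in LD-PM2.5 replicate 1 (1.038) and LL-PM2.5 replicate 2 (1.225), against 0.248 to 0.469 FPKM in filtered air. Nkg7 was thus tested through the group where it was high. Of the 5 markers below the filter, Gzma was higher in every PM2.5 library, and the others overlapped between the airs. Summed erythroid markers were 107 and 115 FPKM in LD-PM2.5, 206 and 221 FPKM in LL-PM2.5, against 227 and 148 FPKM in LD-FA and 126 and 155 FPKM in LL-FA, so their direction differed between the light regimes.

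The average rests on 2 effects measured in separate libraries. Within the light/dark cycle edgeR called 0 genes (0%, smallest adjusted p = 0.324) and listed 1240 at an unadjusted p under 0.05 (11%). Within constant light it called 0 (0%, smallest adjusted p = 0.113) and listed 547 (4.83%). DESeq2 called 151 in the light/dark cycle and 58 in constant light. Across the 11316 genes, which are not independent, the effects correlated at a Pearson r of 0.338 and a Spearman rho of 0.149, and 54.3% had the same sign. Among the 1240 genes of the light/dark cycle 65.6% had the same sign in constant light, and 115 of them (9.27%) also had an unadjusted p under 0.05 there with that sign, against 22 with the opposite sign. Among the 547 genes of constant light 68.9% had the same sign in the light/dark cycle. The 9 skeletal muscle markers, found mainly in filtered-air libraries, are among the genes compared. Their median log2 fold changes were -9.13 in the light/dark cycle and -9.22 in constant light, and all 9 had the same sign. The part of muscle transcripts in these correlations and counts was not tested.

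The difference of the PM2.5 effect between constant light and the light/dark cycle was called by edgeR for 0 genes (0%, smallest adjusted p = 0.843), with 552 at an unadjusted p under 0.05 (4.88%), and by DESeq2 for 33 (0.292%). Among the genes of smallest p, Alas1, the rate-limiting enzyme of heme synthesis, stood at 160 and 191 FPKM in LD-PM2.5 and 62 and 30.2 FPKM in LL-PM2.5, against 42.5 and 49.9 FPKM in LD-FA and 70.4 and 164 FPKM in LL-FA. LD-PM2.5 was above LD-FA, and LL-PM2.5 was below LL-FA. Hba-a1, an alpha globin, stood at 4.81 and 5.92 FPKM in LD-PM2.5 and 19.6 and 24.9 FPKM in LL-PM2.5, against 23.6 and 12.7 FPKM in LD-FA and 9.76 and 10.5 FPKM in LL-FA, with the reverse order. Hamp2, a hepcidin relative, stood at 3.04 and 4.91 FPKM in LD-PM2.5 and 19.4 and 60.8 FPKM in LL-PM2.5, against 8.35 and 11 FPKM in LD-FA and 2.73 and 5.42 FPKM in LL-FA. The difference, constant light minus light/dark cycle, was -3.26 ± 0.61 for Alas1, 2.85 ± 0.43 for Hba-a1 and 4.53 ± 0.78 for Hamp2 on the log2 scale. Nrep, Etfbkmt, Pim1 and Steap4 had negative and Tm4sf1, Hba-a2 and Hnrnpdl positive differences, between -2.59 ± 0.35 for Nrep and 2.68 ± 0.53 for Hba-a2. Rgs16 and Mtss1 had differences of 1.95 ± 0.57 and -0.42 ± 0.23 (edgeR adjusted p = 0.843 each).

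**Figure D5:**
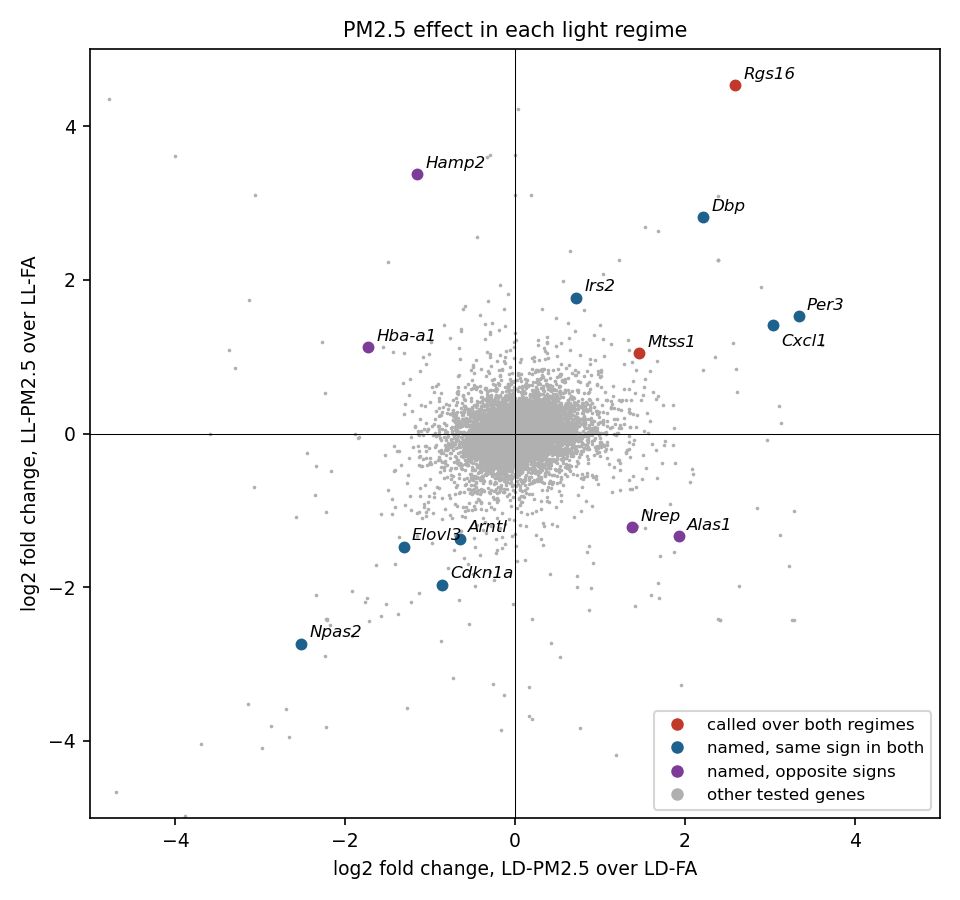
Log2 fold change of PM2.5 over filtered air in constant light (vertical) against the light/dark cycle (horizontal) for 11245 tested genes, with 71 beyond the axes not drawn. Rgs16 and Mtss1 stand in the upper right at 2.59 and 4.54 and at 1.46 and 1.04, Arntl, Cdkn1a, Elovl3 and Npas2 in the lower left, and Alas1, Nrep, Hamp2 and Hba-a1 where the signs differ.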

How the data were processed

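RNA of mouse liver was sequenced in 8 libraries, 2 for each of LD-PM2.5, LL-PM2.5, LD-FA and LL-FA, and groups were taken from the labels. The submitters' processing notes name STAR, Cufflinks, Cuffdiff and the mm10 build, without versions. The sources used here do not state the strand setting of the counting. A deposited table gives, per gene and replicate, estimated fragment counts and FPKM that the authors made with these tools. Of the deposited estimated counts above 0, 97.4% are whole within 0.01, and all were rounded for the tests. The 47 of 48432 genes without an OK status in every library, 1.07% of the fragments, were left out. Symbols were matched for 48051 gene IDs.

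Genes reaching 1 FPKM in 2 or more libraries were fitted in R 4.3.3 with edgeR 4.0.16 (TMM scaling, quasi-likelihood test, 4 group means). Contrasts were PM2.5 minus filtered air averaged over both light regimes, within each regime, and the difference, with Benjamini-Hochberg adjustment over all 11316 genes and a threshold of 0.05. Alternatives were DESeq2 1.42.0, limma 3.58.1 on log2(FPKM + 1) or log2(FPKM + 0.1), other scaling, filters and model terms, and left-out libraries. Figures were drawn with matplotlib 3.10.9.

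Named genes were, per direction, up to 15 called genes whose groups were apart and whose mean reached 5 FPKM in PM2.5 or filtered air, filled up to 10 by smallest p where fewer passed; every called member and the 3 members of smallest p of each list; all members of the clock lists; and 5 genes per direction for the difference between regimes. Genes named outside this rule are stated as such. The comparison, its members and the gene lists were chosen with earlier results of these data known. The deviations of same-numbered replicates correlated positively in 5 of 6 pairs of groups and negatively in 1 (-0.365 to 0.325). As not every pair exceeded 0.1, the numbers were not taken to pair samples. Chromatin accessibility was not analysed here, and 1 clock gene is not reported here and was left out of its list.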

Additional observations from a re-analysis of the deposited data

Results flagged for a closer look

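Of 156 groups of 4 libraries examined in 78 genes, 7 held a library whose gap to its nearest neighbour took up more of the group's range on log2(FPKM + 1) than Dixon's 95% critical value for 4 samples allows. In samples from 1 normal population about 1 group in 20 would pass that value, a share that the 7 of 156 do not exceed. Each group of 4 here mixes both light regimes, and the genes are not independent. The share is therefore a rough guide and cannot decide whether these values arose by chance. In 5 genes the library was LD-PM2.5 replicate 2. It was low for Nr1d1, which encodes REV-ERBα, at 5.55 FPKM, against 37.8 to 52.5 FPKM in the other PM2.5 libraries, a gap ratio of 0.848. It was high for the clock repressors Per2, at 9.33 FPKM beside 1.85 to 2.23 FPKM (0.904), and Cry1, at 15.1 FPKM beside 2.72 to 2.90 FPKM (0.967). It was also high for the phosphatase gene Dusp1, at 13.5 FPKM beside 7.73 to 8.27 FPKM (0.883), and low for the sterol enzyme gene Msmo1, at 38.9 FPKM beside 143 to 182 FPKM (0.842). LD-PM2.5 replicate 1 was low for the uridine phosphorylase gene Upp2, at 54.5 FPKM beside 183 to 199 FPKM (0.934). Among filtered-air libraries, LD-FA replicate 1 was high for the alpha globin gene Hba-a2, at 13.5 FPKM beside 5.72 to 6.43 FPKM (0.870). The time of day at which each liver was taken is not given in the sources used here, and its part in these values was not tested.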

How the results depend on the processing

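For PM2.5 against filtered air over both light regimes, 2 genes were called. The count was 2 under the replicate block (smallest adjusted p = 0.0499 in edgeR), and under both other scalings. It was also 2 with the stricter filter and with limma on log2(FPKM + 1), each sharing 1 gene with the reported calls, and 3 with a robust prior. It was 0 in the additive model, 696 with no filter (279 higher and 417 lower), 161 with DESeq2, 1 with limma on log2(FPKM + 0.1), 0 to 17 with each library left out, and 0 with replicate 1 of both filtered-air groups left out. Within the light/dark cycle the count was 0, and 647 with no filter, 151 with DESeq2, 0 to 36 with each library left out and 1 with those libraries left out. Within constant light it was 0, and 476 with no filter, 58 with DESeq2, 1 with limma on log2(FPKM + 1), 1 with the robust prior and 0 to 10 with each library left out. For the difference between regimes it was 0, and 239 with no filter, 33 with DESeq2 and 2 with limma on log2(FPKM + 1); the additive model has no such term. Non-overlapping groups were found for 385 genes, for 643 in TMM-scaled CPM, for 547 to 1078 with each library left out, where smaller groups separate more easily, and for 1868 with those libraries left out. Single genes turned sign in 5 cases. With each library left out, Nr1d1 ranged from -0.22 (LD-PM2.5 replicate 1 left out) to 1.42, Cry1 from -0.70 to 0.56, Hlf from -0.008 to 0.40 and Bhlhe40 from -0.105 to 0.485, the last 3 being negative with LD-PM2.5 replicate 2 left out. Cry1 was also at -0.034 with limma on log2(FPKM + 0.1). Except for the fewer libraries or other genes tested, the cause was not tested. Of the list medians under all alternatives, 793 moved by less than the spread between replicates and 58 by more. The replicate block changed the call of none of the 4 counts and 78 genes. Within-regime counts, left-out libraries for overlap and their values were added after the data were seen. The design has 2 libraries per group and 4 residual degrees of freedom, and the median SE of a log2 fold change was 0.132.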
